A study of Homo sapiens with 6 samples.

Results

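The harvest taken 1 h after actinomycin D was set against the harvests on either side of it, at 30 min and 8 h, in an emetine experiment on the human cell line GM00156 of the Coriell repository. Of the 6 arrays of the study, these 3 were used, with the other harvests and a self-self array as background. For each probe the log2 ratio at 1 h was compared with the mean of its values at 30 min and 8 h, called the neighbours' mean below. Of 14080 probes, 13236 were measured on all 3 arrays, after the most repeated value of each array was dropped as not measured (1.06 at 534 probes at 30 min, 0.40 at 428 at 1 h and 0.99 at 416 at 8 h).

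Cells were kept for 10 h with or without emetine at 100 µg/ml. Actinomycin D at 5 µg/ml was then added to treated and untreated cells alike, and pairs of cultures were collected at 0 min, 10 min, 30 min, 1 h and 8 h. On each harvest's array, emetine-treated mRNA carried Cy3 and untreated mRNA of the same harvest carried Cy5. The labels do not say which channel is the numerator, so values are given as lying on the positive or the negative side of 0, with no direction in treated cells. The 0 min array has conflicting labels, since its description names treated RNA in both channels and its channel labels name untreated RNA in one. The cell type of the line is not stated in the labels, and a ratio gives no level against which markers could check it. Each harvest is 1 array of 1 pair of cultures, so no value has a replicate. In such bulk RNA, fewer cells of a kind and less RNA per cell cannot be told apart.

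Emetine stops ribosomes from moving along mRNA, and actinomycin D stops the synthesis of new RNA. With both present, existing transcripts decay and few new ones are made. Immediate-early genes such as FOS and JUN, and many cytokine genes, make mRNA with AU-rich elements that is destroyed within minutes to hours, and blocking translation is known to slow that decay. Transcripts of ribosomal proteins, metabolic enzymes and the cytoskeleton are mostly long-lived.

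On the negative side the 1 h array followed its neighbours with a modest loss of size, and on the positive side it flattened. Where the neighbours' mean lay between -4 and -3, the median 1 h value was -2.97 (24 probes). Between -3 and -2 it was -1.70 (84 probes), and between -2 and -1 it was -0.93 (1021 probes). Above 0 the medians at 1 h were 0.23, 0.63, 1.03, 1.29 and 1.34 as the neighbours' mean went up by 1 log2 unit at a time from 0 to 5. The slope of the 1 h value on the neighbours' mean was 0.79 below -1, 0.28 above 1 and 0.04 above 3. The 30 min array, set against the mean of 10 min and 8 h in the same way, gave slopes of 0.89, 1.00 and 1.11. At 1 h, 2 probes exceeded 2, against 417 at 30 min and 750 at 8 h. Below -2 the counts were 78, 98 and 147, and 26 of the 78 were in the runs of neighbouring identifiers described further on.

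**Figure D1:**
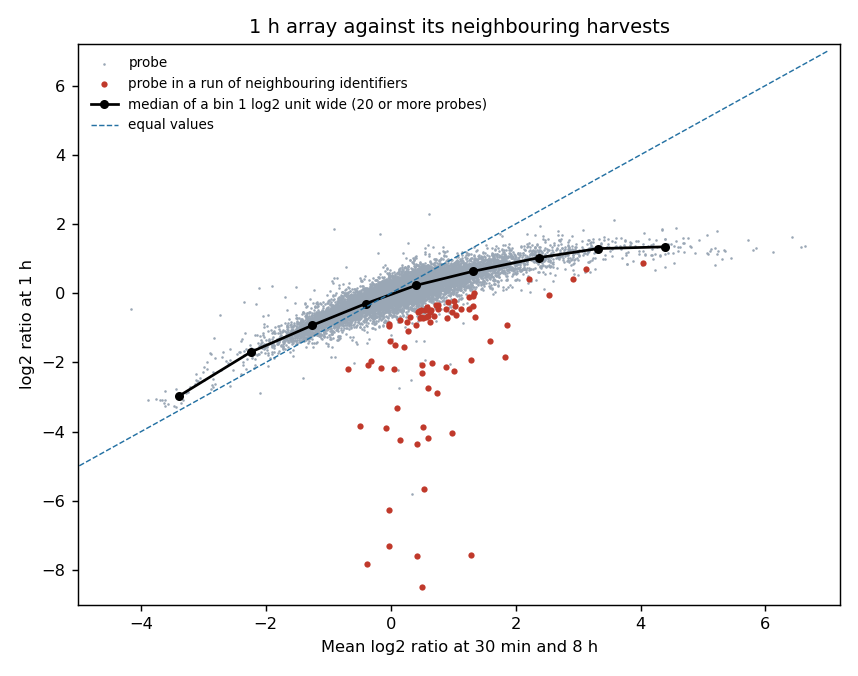
Each grey point is a probe, with its mean log2 ratio at 30 min and 8 h on the horizontal axis and its log2 ratio at 1 h on the vertical axis; black circles are medians of bins with at least 20 probes, and red points are probes in runs of neighbouring identifiers, described further on. The medians stay near the dashed line of equal values on the negative side and level off at 1.34 on the positive side.

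Because of this flattening, the size of a difference as deposited mostly restates the neighbours' level on the positive side. As deposited, 831 probes lay more than 1 log2 unit lower at 1 h than the neighbours' mean (6.28% of those tested), and 818 of them had a neighbours' mean of 0 or above (10.6% of the 7703 probes of that side). Higher by more than 1 were 38 probes (0.287%), 2 of them on that side (0.026%). Rank was therefore read on a quantile scale, on which the 3 arrays are given the same distribution and only the order of probes counts. The quantile scale stretches the narrow positive range of the 1 h array, so that small differences there become large ones. On it, 165 probes lay more than 1 higher at 1 h than the neighbours' mean (1.25%) and 220 lay more than 1 lower (1.66%). Over the 13151 probes measured on all 5 harvests the counts were 160 (1.22%) and 211 (1.6%) at 1 h, 188 (1.43%) and 201 (1.53%) for 30 min against 10 min and 8 h, and 50 (0.38%) and 36 (0.274%) for 10 min against 0 and 30 min. The share of probes out of place in rank at 1 h was thus of the same order as for 30 min and above that for 10 min, although these comparisons share arrays.

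The order of probes was kept over all probes together and mostly lost among those with a neighbours' mean above 3. Spearman's rho between 1 h and 30 min was 0.86 over 13236 probes, and between 1 h and 8 h 0.77, as between 30 min and 8 h. Among the 163 probes with a neighbours' mean above 3, rho was 0.17 between 1 h and 30 min and -0.04 between 1 h and 8 h. Between 30 min and 8 h it was 0.36. Among the 495 probes above 2, rho was 0.58 and 0.21, against 0.35, so the order shared with 30 min was partly kept there. At 0 or above (7703 probes) rho was 0.69 and 0.49, against 0.42. Below 0 (5533 probes) rho was 0.80 and 0.58, against 0.51. These groups were picked by the neighbours' mean, which by itself lowers the rho between 30 min and 8 h. Within them, that rho is therefore no yardstick for the agreement of the 1 h array with its neighbours. These are descriptions across probes of 1 slide design, which are not independent.

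Genes listed here as immediate-early regulators or targets of NF-kB made up many of the highest ratios before and after 1 h. Few of the listed genes were among the highest at 1 h. TNFAIP3, which encodes an enzyme that restrains NF-kB signalling, was at 5.49, 6.58, 6.90, 1.36 and 6.38 at 0 min, 10 min, 30 min, 1 h and 8 h. Its value at 1 h was the lowest of the 5 harvests, and its second probe gave 1.26 at 1 h between 5.64 and 5.95. FOS, a subunit of the AP-1 transcription factor, was at 3.55, 5.09, 5.33, 1.02 and 5.57, so that only the 1 h value stood apart. On the quantile scale FOS lay 2.4 below the neighbours' mean. GADD45B, a stress-response gene, was at 3.0, 5.17, 6.47, 1.35 and 6.67 on 1 probe and at 2.76, 4.45, 5.27, 1.29 and 6.43 on the other. EGR4, a zinc finger transcription factor, was at 5.94, 6.74, 6.44, 1.19 and 5.80. In limma, with Benjamini-Hochberg adjustment over all probes, none of these passed an adjusted p of 0.05 in the fit of 1 h against 30 min and 8 h on the quantile scale (0.064 for FOS, 0.0867 for GADD45B, 0.118 for EGR4 and 0.22 for TNFAIP3). On another quantile scale, taken over all 5 harvests, FOS passed with 10 min, 30 min and 8 h as the reference (a difference of -2.62). FOS also passed there with all 4 other harvests as the reference (-2.49). FOS, TNFAIP3 and EGR4 passed on that scale with a line over 5 harvests plus a 1 h term (-2.51, -2.43 and -2.93). These differences are not in the units of the scale over 3 arrays. All 4 genes passed with values as deposited (-4.43 for FOS, -5.22 for GADD45B, -4.93 for EGR4 and -5.28 for TNFAIP3), where the flattening of the array enters the difference.

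**Figure D2:**
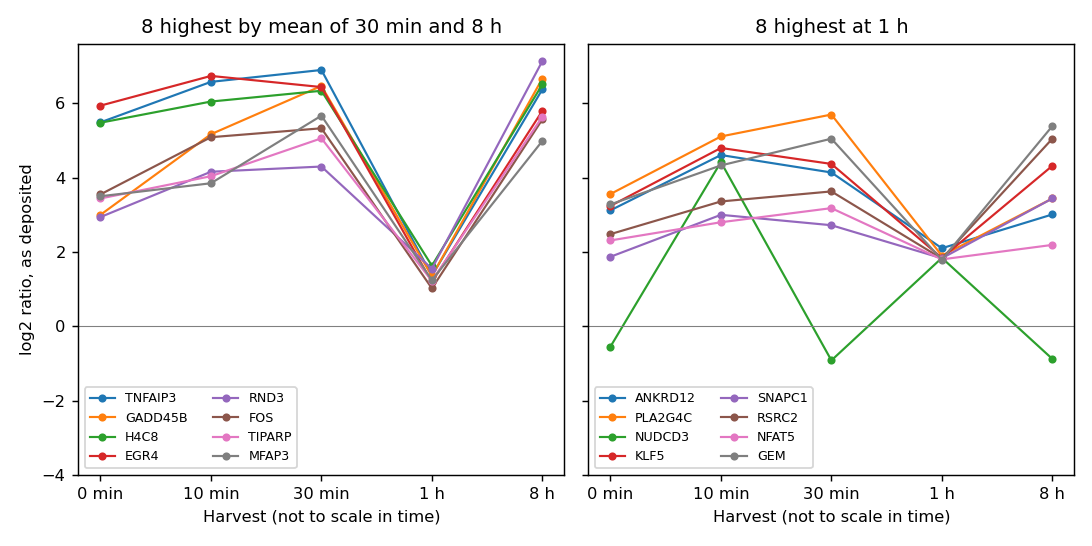
Deposited log2 ratio (vertical axis) of 8 genes at each of the 5 harvests (horizontal axis, not to scale in time), 1 probe per gene; the left panel holds the genes with the highest neighbours' mean and the right panel those highest at 1 h. At 1 h the genes on the left lie between 1.02 (FOS) and 1.63 (H4C8) and those on the right between 1.79 (GEM) and 2.10 (ANKRD12).

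Ranked by their best probe, 22 of the 50 highest genes by neighbours' mean belonged to the lists of immediate-early regulators and of NF-kB targets, cytokines and chemokines. These lists hold 77 of the 8725 genes ranked (0.883%). Among the 50 highest genes at 1 h there were 2, DUSP6 and PLK2, against 22 at 30 min, 19 at 8 h and 21 at 10 min. The lists do not hold every gene of these kinds, so the counts are of list members only. GEM, KLF5, REL and MAP3K14, for example, are outside them and were among the 50 highest at 1 h. With the 25 highest genes the counts were 1 at 1 h, 14 at 30 min and 10 at 8 h, and with the 100 highest they were 8, 30 and 30. The 50 highest genes at 1 h shared 17 with those at 30 min and 13 with those at 8 h, whereas 30 min and 8 h shared 30. At 1 h 41 of 48 immediate-early genes and 24 of 31 genes of the NF-kB list were positive, against 4809 of all 8768 genes. By neighbours' mean the counts were 44, 28 and 5250.

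The same order was seen among genes of similar height in the neighbouring harvests. Of genes with a neighbours' mean of 4 to 7, 23 in these lists had a median 1 h value of 1.16 (0.67 to 1.52), and 28 others had a median of 1.42 (1.11 to 1.90). All but 1 of the 23, that is 22, were below the median of the others. Their medians at 30 min were 4.66 and 4.32, at 8 h 5.00 and 5.05, and on the self-self array both were -0.01. Between 3 and 4, all 8 list genes were below the median of the 59 others (1.13 against 1.32), and between 2 and 3, 7 of 12 were (0.87 against 1.02). Between 1 and 2 the medians were 0.65 and 0.64. These are descriptions of single arrays, with no test.

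**Figure D3:**
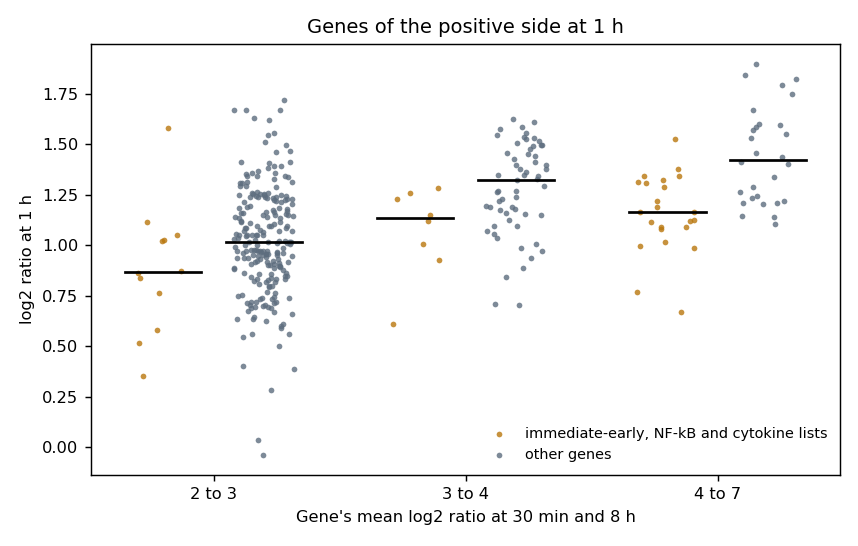
Log2 ratio at 1 h (vertical axis) of genes grouped by their mean at 30 min and 8 h (horizontal axis), with genes of the immediate-early, NF-kB and cytokine lists in orange and other genes in grey; black bars are medians and the sideways scatter has no meaning. The list genes sit lower in the groups from 3 to 4 (1.13 against 1.32) and from 4 to 7 (1.16 against 1.42).

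Within the list of 48 measured immediate-early and AU-rich regulators, 28 genes lay below both neighbours on the quantile scale (58.3%) and 8 above both (16.7%), against 24.3% and 34.3% of all 8768 genes. The list's median was 2.0 at 30 min, 0.73 at 1 h and 2.75 at 8 h. This list and the NF-kB list lay at percentiles of 96.6 and 97.9 at 30 min, so all genes are no background of like height. These shares are not given for other genes that high. Outside the lists, TIPARP and MFAP3 lay 1.79 and 1.69 lower than their neighbours' mean on the quantile scale, and KLF5 and PLA2G4C 1.15 and 1.29 higher. JUN, the partner of FOS in AP-1, was at 5.12, 0.99 and 5.49 at 30 min, 1 h and 8 h. EGR1, another early-response zinc finger factor, was at 4.41, 1.00 and 3.99. MYC, a growth regulator with a short-lived mRNA, was at 3.39, 1.15 and 4.15, and MCL1, a short-lived survival factor, at 3.08, 1.12 and 4.87. All 4 lay lower at 1 h than at either neighbour, both as deposited and on the quantile scale. DUSP6, a phosphatase that turns off ERK, was at 2.70, 1.58 and 2.34 and lay 1.69 above its neighbours' mean on the quantile scale, although below both as deposited. PLK2, a kinase of the early response, was at 4.29, 1.52 and 4.19 and kept its rank (0.23 higher). ID1, an inhibitor of helix-loop-helix factors, was the list's lowest member, at -1.11, -0.92 and -1.48.

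The list of NF-kB targets, cytokines and chemokines had 19 of 31 genes below both neighbours (61.3%) and 4 above both (12.9%) on the quantile scale. LIF, NFKBIA and CXCL3 lay furthest from their neighbours' mean on that scale, with TNFAIP3, which is in both lists. NFKBIA, the inhibitor that holds NF-kB in the cytoplasm, was at 4.41, 4.89, 4.67, 0.77 and 4.13 over the 5 harvests, lowest at 1 h. LIF, a cytokine of the interleukin 6 family, was at 3.09, 4.30, 4.13, 0.67 and 4.33, again lowest at 1 h. CXCL3, a neutrophil-attracting chemokine, was at 5.23, 1.12 and 5.21 from 30 min to 8 h. IL6 itself was at 4.28, 1.34 and 5.35, and CXCL8, another chemokine for neutrophils, at 3.37, 1.11 and 5.00. CCL2 and CCL20, chemokines for monocytes and lymphocytes, lay nearer to their rank, 0.39 and 0.51 below the neighbours' mean. ICAM1, an adhesion molecule, was more than 1 lower on both of its probes. IL11 was the only member below -1 at 1 h, at -1.74, -1.02 and -1.84.

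Genes outside these lists took most of the highest places at 1 h, among them ANKRD12, REST, SNAPC1 and NFAT5. Among 389 genes with a neighbours' mean above 2, the self-self value had a rho of 0.25 with the 1 h value. With the neighbours' mean it was -0.04. On the probe highest at 1 h, the self-self value was 0.42 for ANKRD12, 0.28 for REST and 0.19 for NFAT5. It was 0.04 for SNAPC1, 0.01 for KLF5 and 0.05 for GEM. Whether such offsets enter the order at 1 h was not tested. ANKRD12, a nuclear corepressor-binding protein, was at 3.12, 4.61, 4.14, 2.10 and 3.01 and had the highest 1 h value of the genes ranked. Its other probe was at 1.14 at 1 h, between 1.25 and 2.04. REST, a repressor of neuronal genes outside neurons, was at 2.01, 3.35, 2.55, 1.68 and 2.07 on 1 probe and at 1.32, 2.71, 2.80, 1.66 and 2.09 on the other. Both REST probes lay below both neighbours as deposited, and 2.23 and 2.0 above the neighbours' mean on the quantile scale. SNAPC1, a subunit of a complex needed for transcription of small nuclear RNA genes, was at 2.72, 1.83 and 3.44 on 1 probe. Its other probe was at 2.20, 1.43 and 2.17. Both SNAPC1 probes were likewise lower as deposited and higher in rank (1.99 and 1.30). NFAT5, the factor of the osmotic stress response, was at 3.18, 1.80 and 2.19, but its second probe kept its rank (0.14 higher). RBBP6 was at 2.81, 1.67 and 2.55, and PCF11, a factor of transcript 3' end formation, at 2.99, 1.67 and 2.82. KLF5, a zinc finger factor, was at 4.37, 1.84 and 4.32, RSRC2 at 3.63, 1.82 and 5.05, and GEM, a small GTPase, at 5.05, 1.79 and 5.39. Of these genes none passed the adjusted p of 0.05 in the limma fit of 1 h against 30 min and 8 h (0.149 for SNAPC1, 0.194 for REST, 0.382 for ANKRD12 and 0.432 for NFAT5). On the quantile scale over 5 harvests, SNAPC1, ANKRD12, NFAT5 and RBBP6 passed with a line plus a 1 h term (differences of 2.26, 2.65, 2.31 and 2.09). With the 4 other harvests as the reference on that scale, SNAPC1 passed (2.27).

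Repeat probes were the only repeat measurement. Over 1546 genes with more than 1 probe (3742 probes), the difference on the quantile scale had a pooled SD of 0.35 within genes, against 0.41 over all these probes. In 3 genes every probe lay more than 1 higher, REST, SNAPC1 and PAK1IP1. In 4 every probe lay more than 1 lower, TNFAIP3, GADD45B, ICAM1 and CCN1, and those belong to the immediate-early and NF-kB lists. By contrast 42 and 47 genes had at least 1 probe past these limits. RGS5, a regulator of G protein signalling, was at 0.87, 1.45 and -0.30 on the probe that stood 2.96 higher in rank, and its other probes stood 0.22, 0.66 and 1.32 higher. MFAP3, among the highest genes by neighbours' mean at 5.67, 1.24 and 4.99, had a second probe at -0.09, 0.05 and -0.39.

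Promoter sequences are printed for FOS and NFKBIA, which lay lower in rank at 1 h, and for REST, which lay higher, to show how unlike these members are just before the transcript start. They are the 250 bases before the start, 5′ to 3′ on the gene's strand, from RefSeq on GRCh38.p14, at chr14:75278578-75278827 on the plus strand, chr14:35404750-35404999 on the minus strand and chr4:56907650-56907899 on the plus strand. Capitals mark matches, on either strand, to the TATA motif TATAAA, the AP-1 motif TGACTCA and the cyclic AMP response motif TGACGTCA, which do not overlap one another here.
FOS: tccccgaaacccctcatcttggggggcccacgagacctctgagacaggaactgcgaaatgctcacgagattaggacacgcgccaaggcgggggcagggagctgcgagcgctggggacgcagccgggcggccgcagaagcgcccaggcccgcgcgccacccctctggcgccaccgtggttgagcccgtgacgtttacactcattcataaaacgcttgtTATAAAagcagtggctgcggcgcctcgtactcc
NFKBIA: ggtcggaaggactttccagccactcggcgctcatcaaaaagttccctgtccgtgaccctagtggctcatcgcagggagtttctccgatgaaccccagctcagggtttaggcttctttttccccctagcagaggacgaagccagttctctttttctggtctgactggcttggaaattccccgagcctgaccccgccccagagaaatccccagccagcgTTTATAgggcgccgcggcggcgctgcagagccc
REST: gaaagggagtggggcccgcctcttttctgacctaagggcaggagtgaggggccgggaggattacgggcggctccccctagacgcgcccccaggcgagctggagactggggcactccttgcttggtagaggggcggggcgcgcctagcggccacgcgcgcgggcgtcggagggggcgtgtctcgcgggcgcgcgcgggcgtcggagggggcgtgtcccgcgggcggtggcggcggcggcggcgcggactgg

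FOS holds a TATAAA box near its start, NFKBIA holds TATAAA on the opposite strand, and REST has no match, with 76.8% G and C. Over windows from 250 bases before to 50 after the start, TATAAA occurred in 13 of the 42 promoters found for the 50 highest genes by neighbours' mean (31.0%) and in 8 of 44 for the 50 highest at 1 h (18.2%), against 12% of all 27305 promoters and 7.6% of the 7130 of measured genes. For the cyclic AMP motif the shares were 7.14%, 11.4%, 1.98% and 3.21%, and for AP-1 they were 4.76%, 4.55%, 4.92% and 3.39%. The gene sets were chosen by these arrays' values and overlap by 14 genes, and a match is not a site that was shown to act.

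Histone genes lay near their neighbours in rank at 1 h, with smaller ratios as deposited. Replication-dependent histone mRNAs end in a stem loop in place of a poly(A) tail, and their level is tied to DNA synthesis. The 22 measured members had medians of 1.63 at 30 min, 0.66 at 1 h and 2.03 at 8 h, and on the quantile scale 8 lay above both neighbours (36.4%) and 6 below both (27.3%), near the shares over all genes. H4C5 was at 3.58, 1.75 and 4.53, H2BC5 at 3.07, 1.59 and 3.26, and H4C2 at 3.02, 1.55 and 1.87, and each stood more than 1 higher than its neighbours' mean on the quantile scale, although lower as deposited. H4C8 was at 5.54, 1.60 and 5.27 over its 2 probes, which differed in sign on the quantile scale (-1.01 and 0.29). H3-3B, a replication-independent histone gene, was at 1.28, 0.38 and 2.46 and stood 0.95 lower. The coding sequences of H4 genes are nearly alike, so a probe may read several of them.

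On the negative side the 1 h array kept more of the size of its neighbours' ratios than on the positive side, and shared part of the lowest genes with them. Where the neighbours' mean was below 0, 36 of 5533 probes lay more than 1 higher than it at 1 h as deposited (0.651%) and 13 lay more than 1 lower (0.235%). The 50 lowest genes at 1 h shared 27 with those at 30 min and 26 with those at 8 h, and 30 min and 8 h shared 32. Without the probe runs described further on, which were chosen for low values at 1 h, the counts were 34, 33 and 32. COMP, a cartilage matrix protein, was at -3.75, -3.17 and -2.96 at 30 min, 1 h and 8 h. TIMP3, an inhibitor of matrix metalloproteases, was at -2.76, -2.62 and -3.49, and HSPA8, the constitutive cytosolic Hsp70, at -2.62, -1.99 and -3.27. All 3 stayed below -1.9 at 1 h.

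Tubulin genes were among the lowest throughout. The 13 measured members had medians of -1.07, -0.80 and -1.17, with 6 above both neighbours (46.2%) and 0 below both on the quantile scale. Without the probe runs described further on, these counts were 5 and 2. TUBA4A was at -2.77, -2.33 and -3.46. TUBA1A was measured by 9 probes on the 3 arrays, with means of -2.28, -2.54 and -2.73. One of these probes lay farther from 0 at 1 h than at either neighbour, at -1.90, -2.89 and -2.28, and another at -1.83, -2.03 and 0.66 did so too. Yet another was nearer 0, at -3.41, -3.09 and -4.35, and the gene's mean lay 0.01 from its neighbours' on the quantile scale. TUBA3C, at -2.98, -2.73 and -3.30, is close to TUBA1A in sequence and its probes may read both. Tubulin mRNA is known to be destroyed during its own translation when free tubulin is plentiful.

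Matrix and glycolytic genes were also mostly negative, with median shifts of 0.0 and -0.05 on the quantile scale. The 42 extracellular matrix genes had medians of -0.99, -0.80 and -1.08, with 11 above both neighbours and 9 below both. COL1A1, a chain of type I collagen, ran from -1.62 through -2.19 to -3.02, with 1 h between its neighbours. LDHA, the lactate dehydrogenase subunit of glycolytic cells, had 9 probes between -0.61 and -1.56 at 1 h, and their mean was -1.16, beside -1.17 at 30 min and -1.23 at 8 h. PGK1 was at -1.74, -1.63 and -2.21. Of the 15 glycolytic genes 2 lay above both neighbours and 4 below both. ASNS and PHGDH, enzymes of asparagine and serine synthesis, were slightly farther from 0 at 1 h, at -1.33 between -1.15 and -1.04 and at -1.26 between -1.06 and -1.08. These steps were 0.24 and 0.18 as deposited and 0.56 and 0.50 on the quantile scale, and neither passed in limma (adjusted p = 1.0 for both).

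Some of the largest values nearer 0 at 1 h rested on 1 neighbour. A SDHA probe was at -6.49 at 30 min, -0.45 at 1 h and -1.83 at 8 h, whereas the other 8 SDHA probes lay between -0.14 and -1.22 at 30 min. PEPD was at -3.71, 0.16 and -0.51, and NAV1 at -0.50, -0.30 and -3.82. OPCML, a neural adhesion molecule, was at -2.29, -0.63 and -3.18 and GABBR2, a GABA receptor subunit, at -1.87, -0.64 and -2.05, so that both of their neighbours lay lower than 1 h. The second OPCML probe lay at -0.46, -0.22 and -0.66, and the 3 GABBR2 probes stood 0.31 to 1.05 higher on the quantile scale. None of these 5 passed in limma (adjusted p of 0.345 for OPCML and 1.0 for the others).

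Genes of the ribosome and of oxidative phosphorylation more often stood slightly higher in rank at 1 h than at either neighbour. Of 49 cytosolic ribosomal protein genes 28 lay above both neighbours (57.1%) and 3 below both (6.12%), with medians of -0.45, -0.33 and -0.83. Their median percentile at 1 h was 24.0, near the 22.8 of 30 min, and 12.4 at 8 h. RPL24 was at -0.05, 0.09 and -0.64, RPL23 at 0.00, 0.15 and -0.51, and RPL31 at -0.57, -0.25 and -1.04. RPS12 was at 1.52, 0.56 and 1.58 and stood 0.42 lower in rank. The 62 oxidative phosphorylation genes gave 34 above both (54.8%) and 5 below both (8.06%), with NDUFB3 at 0.09, 0.38 and -0.10. The median shifts of both lists on the quantile scale were 0.20 and 0.17, against 0.02 over all genes. Without the probe runs the shares above both were 55.1% and 51.6%. Shares over other genes of the same level are not given, for these lists or the protein-folding genes below.

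Protein-folding genes gave similar shares. Of 17 endoplasmic reticulum chaperones 10 lay above both neighbours (58.8%) and 1 below both. HSP90B1, the Hsp90 of that compartment, was at -1.07, -0.28 and -1.67, PDIA4 at -2.06, -1.58 and -2.43, and DNAJB9 at -1.54, -1.24 and -2.74. The exception was CALR, a lectin chaperone, at -1.25, -1.15 and -1.10 and 0.28 lower in rank than its neighbours' mean. Of 21 cytosolic and mitochondrial chaperones 12 lay above both (57.1%) and 1 below both. The mitochondrial Hsp60, HSPD1, at -1.72, -1.41 and -1.72, kept its rank (0.06 lower).

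**Figure D4:**
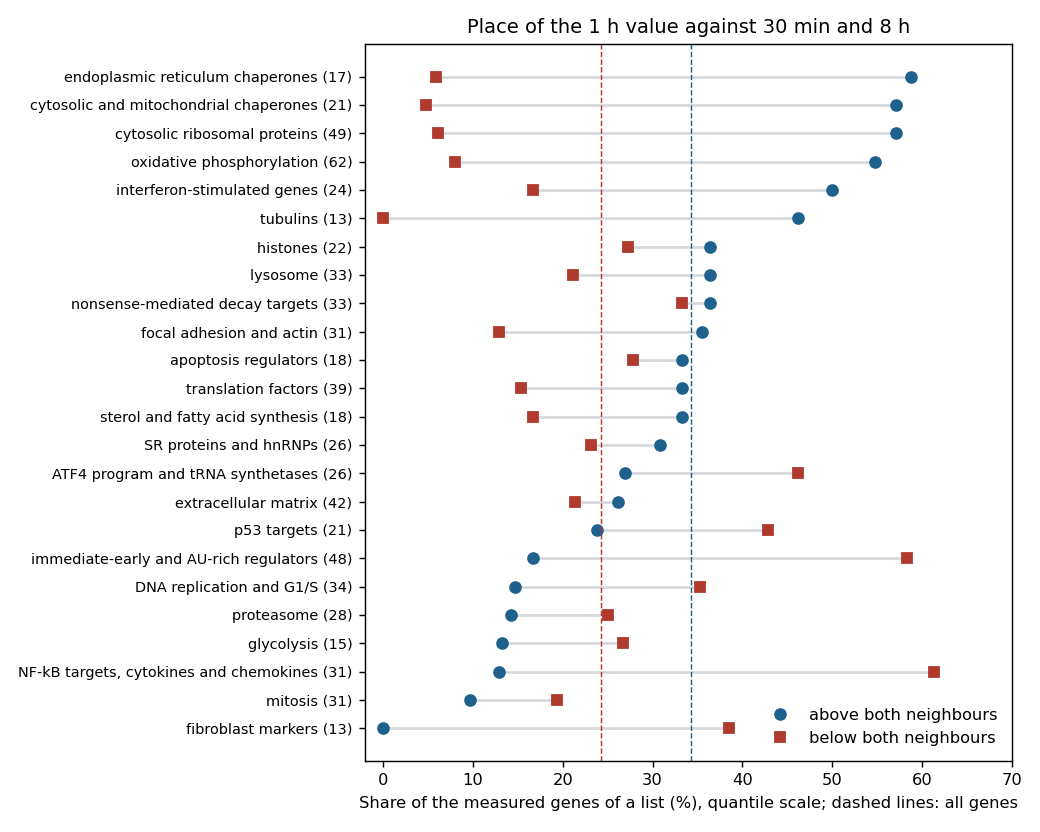
For each gene list with at least 10 measured genes (number in brackets), the share of genes whose 1 h value lay above both neighbours (blue circles) or below both (red squares) on the quantile scale, in percent; the dashed lines are the shares over all genes, 34.3% and 24.3%. The immediate-early and the NF-kB lists have the highest shares below both (58.3% and 61.3%), and chaperones, ribosomal proteins and oxidative phosphorylation the highest shares above both.

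Genes of the division cycle lay near their 30 min place at 1 h. The mitosis list (31 genes) had medians of -0.05 at 30 min, 0.04 at 1 h and 1.10 at 8 h, or percentiles of 39.8, 47.8 and 83.6, and 3 lay above both neighbours and 6 below both. CDC20, an activator of the anaphase-promoting complex, was at -0.50, 0.04 and 1.95. UBE2C, a ubiquitin-conjugating enzyme of the same step, was at -0.48, -0.06 and 1.33, and CENPE, a kinetochore motor, at -0.37, -0.40 and 2.22. In these 3 genes the 1 h value was near that of 30 min and far from that of 8 h. CCNB1, cyclin B1, was the exception at 0.50, 0.57 and 0.21. DNA replication genes (34) had percentiles of 16.3, 20.1 and 39.5, with 5 above both and 12 below both.

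The place of 1 h between its neighbours was read on the quantile scale for all probes that differed by more than 1 between 30 min and 8 h. Of the 510 probes higher at 8 h, 431 were nearer to 30 min at 1 h (84.5%), and the median had gone 0.19 of the way. Of the 301 lower at 8 h, 186 were nearer to 30 min (61.8%), and the median had gone 0.35 of the way.

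Among the remaining lists some also lay away from the shares over all genes (34.3% above both, 24.3% below both), and others lay near them. Shares over other genes of the same level are not given for these lists either. The ATF4 program with tRNA synthetases had 12 of 26 genes below both neighbours (46.2%) and 7 above both (26.9%), and p53 targets had 9 of 21 below both (42.9%) and 5 above both (23.8%). Interferon-stimulated genes had 12 of 24 above both and 4 below both (16.7%), the proteasome 4 of 28 above and 7 below, and translation factors 13 of 39 above and 6 below. Known targets of nonsense-mediated decay, the surveillance pathway that needs translation, had 12 of 33 above both and 11 below both, with medians of 0.56, 0.30 and 0.82. The SR protein and hnRNP list had 8 of 26 above both and 6 below both. In the same order, lysosome genes gave 12 and 7 of 33, focal adhesion and actin genes 11 and 4 of 31, apoptosis regulators 6 and 5 of 18, and sterol and fatty acid synthesis 6 and 3 of 18. Among marker lists, the 13 fibroblast markers had medians of -1.15, -0.98 and -1.22, with 0 above both and 5 below both (38.5%). B lymphocyte markers (6), T and NK cell markers (8), epithelial markers (9) and endothelial markers (5) had medians between -0.08 and 0.12 at 1 h.

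The test called few probes. In limma on the quantile scale, 32 probes passed an adjusted p of 0.05 (0.242%), 4 higher (0.0302%) and 28 lower (0.212%), and 460 had an unadjusted p under 0.05. With 1 residual degree of freedom, which is the gap between 30 min and 8 h, its p-values rest on a variance borrowed from all probes. On simulated data this fit made more false calls than its adjusted p allows. Many shifted probes had been put into those data, so the number of false calls among those made here cannot be read from them. Of the 28 lower calls, 23 were probes whose identifiers lie next to, or about 22 apart from, those of other probes low at 1 h, here called runs. Without the runs, the fit called 4 probes, 3 higher and 1 lower, but the runs were chosen on low 1 h values.

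More exactly, a probe was in a run if it lay more than 1 lower on the quantile scale and had at least 2 such partners. Partners were probes with nearly adjoining identifiers, or identifiers about 22 or 44 away. The runs held 78 of the 220 lower probes (35.5%), against 9 of the 165 higher probes (5.5%) found in runs of that side. From identifier 12473 to 12627, 21 of 155 measured probes were in runs, with medians of 0.52 at 30 min, -3.89 at 1 h and 0.37 at 8 h. The other probes of that stretch had a median of 0.42 at 1 h and of 0.33 for the neighbours' mean. From 3891 to 3958, 11 of 57 were in runs, with medians of 0.28, -2.09 and 0.46. MAP3K1, a kinase of the JNK pathway, was at 0.23, -0.13, 1.58, -7.56 and 0.98 over the 5 harvests on a probe of the first stretch. FRS3, an adaptor of growth factor receptors, was at 0.40, -6.27 and -0.47, and IL2RA, a receptor chain of interleukin 2, at 0.16, -3.32 and 0.03 in the same stretch. NF1, a RAS inhibitor, was at 0.77, -4.18 and 0.43 there, but at 0.52, 0.15 and 0.86 on a probe outside the runs. KANK2, at 1.67, -1.85 and 2.0 in the second stretch, was at -0.39, -0.40 and -0.15 on its other probe. Of the 12 probes below -4 at 1 h, 11 were in runs. The pattern by identifier was not limited to the runs. Over all probes, quantile-scale differences at 1 h, clipped at 1, had an r of 0.22 at an identifier distance of 1 and 0.17 at 22. Without the runs r at 22 was 0.15. For 10 min and 30 min against their own neighbours, r was 0.24 and 0.19 at 1, and 0.08 and 0.09 at 22. The deposited table gives no slide positions, so the place of these spots was not tested.

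**Figure D5:**
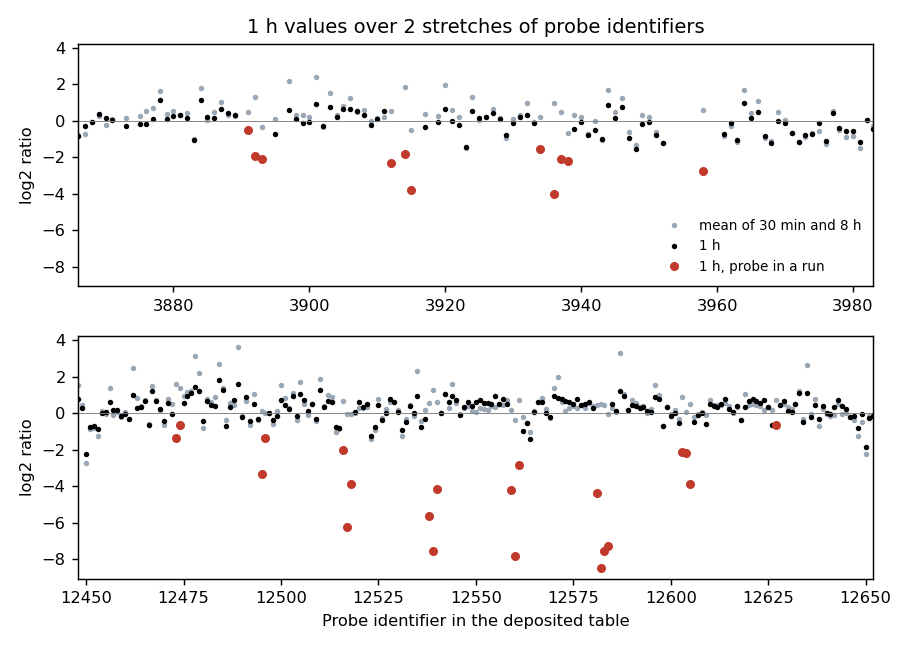
Log2 ratio (vertical axis) against probe identifier (horizontal axis) over both stretches of the table richest in runs; grey points are the mean of 30 min and 8 h, black points are 1 h, and red points are 1 h values of probes in runs. The red points lie down to -8.48, while probes with identifiers between them lie near their neighbours' mean.

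Outside the runs, NUDCD3, a dynein-associated chaperone partner, was the named gene called higher. It was at -0.55, 4.42, -0.92, 1.84 and -0.88 over the 5 harvests, so that it was high at both 10 min and 1 h (limma difference 5.47, SE 0.36, adjusted p = 0.00142 on the quantile scale), and the call was lost with 10 min in the reference and with values as deposited. Among the other 3 higher calls, of which 2 have no single gene symbol here, ENTREP2, not measured at 10 min and named after its values were seen, was at 0.63, 2.29 and 0.60 (limma adjusted p = 0.00216). The lower calls outside the runs with a matched gene symbol included KCNC1, a potassium channel, at 1.28, -2.04 and 0.61, SNAP91 at 0.48, -2.50 and 0.17, and ZNRF2 at 0.30, -2.01 and 0.64, also named after their values were seen. Each of these rests on 1 spot of 1 array.

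Reversals of sign were rare. Against the central 99% of the self-self array (-0.36 to 0.57), 2437 probes were positive at both neighbours and 1439 of these also at 1 h, while 2765 were negative at both and 2275 also at 1 h. Of probes positive at both neighbours, 23 were negative at 1 h, 15 of them in runs, among them KANK2, FJX1, CGN and LAT2. In the other direction there was 1 probe, that of NUDCD3.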

How the data were processed

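Two-colour arrays compared emetine-treated and untreated GM00156 cells. Per the labels, housekeeping genes served the authors for normalization inside a slide, and ratios of quality below 0.5 were removed. The deposited values are log2 ratios (base settled from the values), with numerator and any centring between arrays not stated (column medians 0.15 at 30 min, 0.06 at 1 h, 0.15 at 8 h). Dropping repeated values follows the rule of the comparison. Of 14080 probes 11304 have 1 gene symbol (11290 matched), 446 several and 2330 none.

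Quantile normalization over the 3 arrays, counts and medians used Python 3.11.15. Fits with further harvests in the reference used quantile normalization over 5 harvests. limma 3.58.1 in R 4.3.3 fitted a term for 1 h with eBayes and Benjamini-Hochberg adjustment over all probes, two-sided. It was tested on simulated data, where adjusted p-values came out too small at 1 residual degree of freedom. The number of arrays limits the precision. Gene values average single-gene probes.

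The members and the 28 lists were chosen with earlier results of these data known. Named genes were, 1 probe each and measured on all 5 harvests, the 10 per side farthest in rank from both neighbours, 6 per side among negative values, 6 of opposite sign, the 8 highest by neighbours' mean and at 1 h, and 4 per list; others were chosen after their values were seen. Alternatives covered repeated values, neighbour, scaling, limit, reference, variance prior, probe averaging and, added after seeing the data, runs, the limit between neighbours and leading-set size.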

Additional observations from a re-analysis of the deposited data

How the results depend on the processing

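No paired analysis was possible because each harvest has 1 array. As deposited, 869 probes lay past 1, with 1754 against 8 h alone and 3223 at a limit of 0.5. On the quantile scale 385 did, with 854 against 8 h alone. The other alternatives kept these totals within 1.5 times. By direction, the 38 higher as deposited became 84 with repeated values kept and 82 at equal robust SD, and 165 higher and 220 lower on the quantile scale became 155 and 147 without the runs. The 32 limma calls became 79 with repeated values kept, 58 with arrays scaled to equal robust SD, 80 with a line over 5 harvests plus a 1 h term and 4 without probe runs (chosen after seeing the data, fewer probes). The other causes were not tested. With values as deposited limma called 24, all lower, in place of 4 higher and 28 lower. It called 40 with the 4 other harvests as reference, 26 of them shared with the 32. Of the named genes, 10 of 45 turned sign as deposited and 7 at equal robust SD, against at most 1 under each other alternative. FOS passed in 5 other fits, 3 of them on the quantile scale over 5 harvests. NUDCD3 failed in 4. Without the runs the 28 list medians moved by at most 0.05, but counts against both neighbours were less stable. Tubulins went from 6 above and 0 below to 5 and 2. The ATF4 list went from 7 above to 4, and cytosolic and mitochondrial chaperones from 1 below to 3. The median place of 1 h between its neighbours was 0.21 and 0.31 at a limit of 0.5.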
